A study of Mus musculus with 8 samples.

Results

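Cholesterol cannot enter the brain from the blood in useful amounts, so brain cells make their own, and astrocytes load it onto apolipoprotein E particles that neighbouring cells take up. The 32 genes described here cover that supply line: 17 genes of sterol synthesis, 6 of its regulation, and 9 of transport, of which 6 concern lipoproteins and sterol export and 3 concern sterol movement inside the cell. They were taken from a list of known pathway genes and matched by Ensembl identifier to the 55417 gene rows of the count tables. All 32 were found. A filter on low counts left 29 of them to be tested among 11781 genes in all, and Idi1, Abcg1 and Lpl were too scarce to pass it.

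Astrocytes had been flow sorted from the brains of 4 wild-type (WT) mice at postnatal day 29 (P29), mice 1 and 4 male and mice 2 and 3 female. Each mouse contributed 1 library of cortical astrocytes and 1 of subcortical astrocytes, which gives 4 cortical and 4 subcortical libraries. No treatment is given for any of them. The libraries were made with a forward QuantSeq kit, which reads transcripts near the poly(A) tail, and the comparison asks how astrocytes of the cortex differ from those below it. The gate or reporter of the sort and the structures taken as subcortical were not stated in those sources that were used here.

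Gene counts summed to 3537852 to 4060891 per cortical library and to 2484717 to 3829804 per subcortical library. Levels are given as CPM, counts scaled to a common library size after a correction for composition, and mice are always listed in the order 1, 2, 3, 4. Since each transcript gives about 1 fragment whatever its length, CPM values are not divided by length. The astrocyte label was borne out by its markers: all 12 were tested, and their sum was 33504 to 35252 CPM in cortical libraries and 24600 to 26144 CPM in subcortical libraries. Of these 12 astrocyte markers 4 were called higher and 2 lower in cortical libraries. Markers of other cells were present as well. The 10 oligodendrocyte markers summed to 877 to 1410 CPM in cortical libraries and 2299 to 5809 CPM in subcortical libraries, with 8 of 10 called lower in cortical libraries and none at 0. The 7 oligodendrocyte precursor markers summed to 241 to 313 CPM in cortical libraries and 392 to 679 CPM in subcortical libraries, with 2 of the 4 tested called lower and Gpr17 at 0. The 12 microglial markers summed to 184 to 386 CPM in cortical libraries and 127 to 225 CPM in subcortical libraries (3 of 10 tested called higher), and the 12 neuronal markers to 101 to 196 CPM in cortical libraries and 89.4 to 154 CPM in subcortical libraries (1 of 10 tested higher, 1 lower). Both sums overlapped between regions, while those of the oligodendrocyte lineage did not. The 10 endothelial and mural markers summed to 408 to 845 CPM in cortical libraries and 253 to 980 CPM in subcortical libraries (0 of 4 tested called, with 0 of them at an unadjusted p under 0.05 and 0 called by DESeq2 or limma-voom). Of those markers Cdh5 and Tek were at 0. The 7 ependymal and choroid plexus markers summed to 27.3 to 72.3 CPM in cortical libraries and 53.8 to 667 CPM in subcortical libraries, with 1 of the 4 tested called lower.

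As background, sterol synthesis starts from acetyl-CoA, runs through mevalonate and farnesyl pyrophosphate to squalene, closes the ring to lanosterol, and trims lanosterol to cholesterol in a chain of demethylations, reductions and isomerisations. The transcription factors SREBP1 and SREBP2, escorted by SCAP and held back by the INSIG proteins when sterol is plentiful, switch most of these genes on together, and many of their promoters carry a sterol regulatory element beside a CCAAT box that binds NF-Y. Sterol that is made or taken up is moved out of lysosomes by NPC2 and NPC1, esterified by SOAT1, or exported by ABCA1 and ABCG1 onto particles that carry apolipoprotein E and clusterin.

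Promoters of some of the synthesis genes are shown because they carry a feature these genes share outside the count data. RefSeq windows of GRCm38.p6 were used for 25 of the 32 genes, and the 250 bases before each annotated start were searched on both strands. A chromosome, that of Npc1, was left out for the listed genes but not for the background of all genes. Npc1 is therefore not among the 25. The letters CCAAT were found for 14 of the 14 synthesis genes with a window and for 21 of the 25 genes, against 37.5% of all 27025 genes with a window and 40.6% of the 8775 genes tested for region. For 13 of the 14 synthesis genes a match lay within the 100 bases before a start. The exception was Pmvk, whose match lay at -136. Pmvk is not printed below, and neither are Idi1, Tm7sf2, Nsdhl, Ebp and Sc5d. The core of the sterol regulatory element, searched as TCACNCCAC, was found in 1 of the 25 genes, Hmgcs1, against 1.22% of all genes and 1.23% of the tested genes. No motif overlapped the other in the windows below. A match of letters is not a measured binding site. In each 100-base window, printed 5′ to 3′ on the strand of the gene, capitals mark CCAAT or its reverse complement ATTGG and, in Hmgcs1, the element TCACCCCAC, whose first base lies at -137 when -1 is the base before the start. Dhcr7 has several annotated starts, and the one with both boxes is shown.
Hmgcs1, chr13:119690168-119690267, + strand, -183 to -84: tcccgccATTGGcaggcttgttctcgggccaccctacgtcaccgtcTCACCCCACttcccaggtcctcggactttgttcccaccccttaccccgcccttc
Mvk, chr5:114444169-114444268, + strand, -100 to -1: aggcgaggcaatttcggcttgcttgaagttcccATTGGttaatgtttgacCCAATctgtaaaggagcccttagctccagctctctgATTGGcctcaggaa
Mvd, chr8:122443423-122443522, - strand, -100 to -1: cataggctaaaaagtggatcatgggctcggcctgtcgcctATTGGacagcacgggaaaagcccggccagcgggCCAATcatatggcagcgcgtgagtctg
Lss, chr10:76531505-76531604, + strand, -100 to -1: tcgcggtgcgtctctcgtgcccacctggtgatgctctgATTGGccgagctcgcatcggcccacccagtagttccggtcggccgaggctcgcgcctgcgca
Cyp51, chr5:4104698-4104797, - strand, -100 to -1: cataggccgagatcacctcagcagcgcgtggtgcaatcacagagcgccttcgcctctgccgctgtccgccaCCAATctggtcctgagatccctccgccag
Msmo1, chr8:64733579-64733678, - strand, -100 to -1: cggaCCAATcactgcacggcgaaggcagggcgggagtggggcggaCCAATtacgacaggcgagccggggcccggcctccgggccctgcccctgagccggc
Hsd17b7, chr1:169969206-169969305, - strand, -100 to -1: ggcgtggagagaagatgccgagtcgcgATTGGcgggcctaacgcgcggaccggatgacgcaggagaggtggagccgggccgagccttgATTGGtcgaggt
Dhcr7, chr7:143830114-143830213, + strand, -100 to -1: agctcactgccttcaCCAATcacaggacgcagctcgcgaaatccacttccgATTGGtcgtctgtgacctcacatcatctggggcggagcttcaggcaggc

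Between cortical and subcortical astrocytes, 2 of the 29 tested genes rose in cortical libraries and none fell. Npc1, the lysosomal membrane protein that passes cholesterol out of the lysosome, was about 2.08-fold higher in cortical astrocytes, and Clu, which encodes the secreted lipoprotein component clusterin, about 1.64-fold higher. In bulk libraries such as these, fewer cells of a type and less RNA per cell cannot be told apart. These 2 are 6.90% of the tested list, beside 6.81% of all 11781 tested genes (802 genes) at the same threshold, an adjusted p under 0.05 in edgeR's quasi-likelihood test with Benjamini-Hochberg adjustment. By direction, 3.42% of all tested genes were called higher in cortical libraries (403) and 3.39% lower (399), so that 50.2% of the calls were higher, a share that was 73.7% when libraries were scaled by their totals alone. The share of the list that was called is thus about that of all genes. The median log2 fold change was -0.02 over the 29 genes and -0.01 over all tested genes, and the median size of the change was 0.31 over the 29 genes and 0.35 over all tested genes. Without regard to the threshold, the 4 cortical and 4 subcortical values did not overlap for 5 of the 29 genes (Npc1, Clu, Sqle and Pmvk higher, Srebf1 lower), against 12.2% of all tested genes. At an unadjusted p under 0.05 stood 9 of the 29 genes, 31.0%, against 17.4% of all tested genes.

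**Figure D1:**
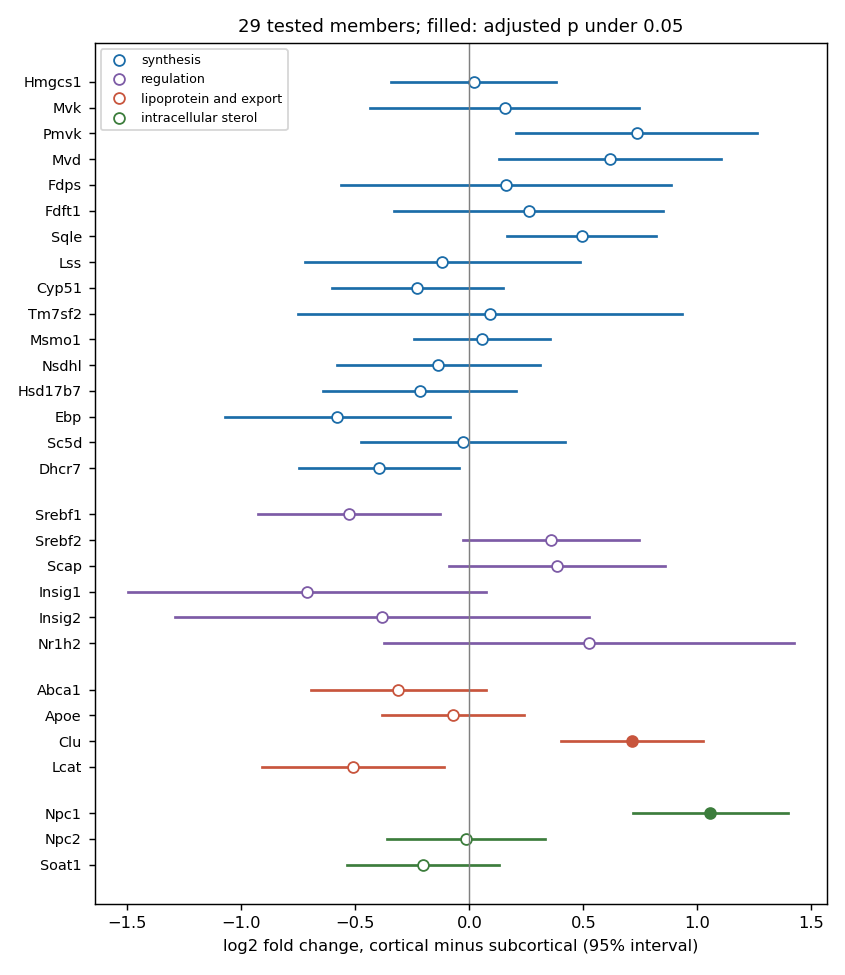
Log2 fold change of each of the 29 tested genes (horizontal axis, cortical minus subcortical, edgeR) with its 95% interval, grouped by role from synthesis at the top to intracellular sterol at the bottom; filled points have an adjusted p under 0.05. Only Clu at 0.71 and Npc1 at 1.06 are filled, and most of the synthesis genes lie near 0.

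The synthesis genes held no called difference in the main test, which has no term for the mouse. Of the 16 tested synthesis genes 0 were called in that edgeR quasi-likelihood test, while 5 had an unadjusted p under 0.05. Limma-voom called 0 of them, DESeq2 called 1, and edgeR with the mouse as a block called 1, which was Mvd. In simulated data, where fewer genes were changed than were called here, the main test found 3.51% of 1.5-fold changes. That share does not give the share found in the real data. Genes without a call can still differ. The summed level of the 17 genes was 3888 ± 196 CPM in cortical libraries and 3780 ± 368 CPM in subcortical libraries (SD, n = 4 each), with overlapping groups. Without Msmo1, which alone gave about as much as the other 16 together, the sum was 1874 ± 208 CPM in cortical libraries and 1843 ± 292 CPM in subcortical libraries (SD, n = 4 each). The median size of the log2 change over the 16 tested genes was 0.19, beside 0.30 over the 8413 tested genes with a mean of at least 10 CPM.

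At the entry to the pathway, Hmgcs1, which makes HMG-CoA for the reductase that follows, had 520.3, 356, 442 and 438 CPM in cortical astrocytes, against 466, 343, 537 and 388 CPM in subcortical astrocytes. The groups overlapped throughout, with a log2 fold change of 0.02 (95% interval -0.34 to 0.38). Mvk, the kinase that phosphorylates mevalonate, had 34.3, 46.9, 50.8 and 57.7 CPM in cortical astrocytes, against 31.01, 23.9, 56.6 and 57.6 CPM in subcortical astrocytes, again overlapping, with a log2 fold change of 0.16 (95% interval -0.43 to 0.74). Pmvk, the kinase of the next step, had 83.6, 58.5, 52.5 and 49.3 CPM in cortical astrocytes, against 45.1, 23.9, 36.8 and 40.4 CPM in subcortical astrocytes. All 4 cortical values lay above all 4 subcortical values, and the highest by far was that of cortical mouse 1, but the log2 fold change of 0.73 (95% interval 0.21 to 1.26) did not pass the threshold (edgeR adjusted p = 0.096, and 0.346 without cortical mouse 1).

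Mvd, the decarboxylase that turns mevalonate pyrophosphate into isopentenyl pyrophosphate, had 116, 114, 195 and 158 CPM in cortical astrocytes, against 90.1, 54.9, 108 and 126 CPM in subcortical astrocytes. It was higher in the cortical library of each of the 4 mice, although the groups overlapped, since subcortical mouse 4 stood above cortical mice 1 and 2. The log2 fold change of 0.62 (95% interval 0.13 to 1.10) was not called in the comparison of 4 libraries with 4 (edgeR adjusted p = 0.142). In a fit with a replicate block, which compares the paired libraries of each animal, it was called (log2 fold change 0.64, adjusted p = 0.0375). That paired fit called 3 of the 29 genes, Mvd beside Npc1 and Clu, against 7.52% of all tested genes. Idi1, the isomerase of the same intermediate, had only 20 counts over the 4 cortical libraries, 15 of them from mouse 3, and 5 over the 4 subcortical libraries. Its exons overlap those of the predicted gene Gm48574 on the other strand, and the sources used here do not say whether reads were counted by strand.

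Fdps makes farnesyl pyrophosphate, and it varied widely between mice. It had 51.3, 26.2, 66.2 and 24.7 CPM in cortical astrocytes, against 41.8, 17.2, 58.3 and 32.7 CPM in subcortical astrocytes, so that mouse 3 was highest and mice 2 and 4 lowest of their region, and the log2 fold change was 0.16 (95% interval -0.56 to 0.88). Fdft1, squalene synthase, had 122, 76.4, 99.8 and 86.4 CPM in cortical astrocytes, against 57.9, 35.3, 133 and 93.02 CPM in subcortical astrocytes. Mouse 2 was lowest in both regions, the subcortical values spanned 3.75-fold, and the log2 fold change was 0.26 (95% interval -0.33 to 0.85). Exons of Fdft1 overlap exons of Ctsb on the other strand, and those of Fdps overlap a predicted gene that had 0 counts. Exons of Hmgcs1, Lss, Cyp51, Tm7sf2, Srebf1 and Scap overlap other genes as well, so that their counts are uncertain to that extent.

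Sqle, squalene epoxidase and a rate-limiting step after the reductase, was the steadiest of the genes that separated the regions. It had 237, 219, 261 and 229.8 CPM in cortical astrocytes, against 175, 163, 156 and 179 CPM in subcortical astrocytes. The lowest cortical value stood above the highest subcortical value, with a coefficient of variation of 7.44% among cortical and 6.37% among subcortical libraries. The log2 fold change of 0.49 (95% interval 0.17 to 0.82) was not called by edgeR's test (adjusted p = 0.0643), whereas DESeq2 called it (adjusted p = 0.00983). DESeq2 called 3 genes of the list in all, Sqle beside Npc1 and Clu, against 7.24% of the 14648 genes it tested.

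**Figure D2:**
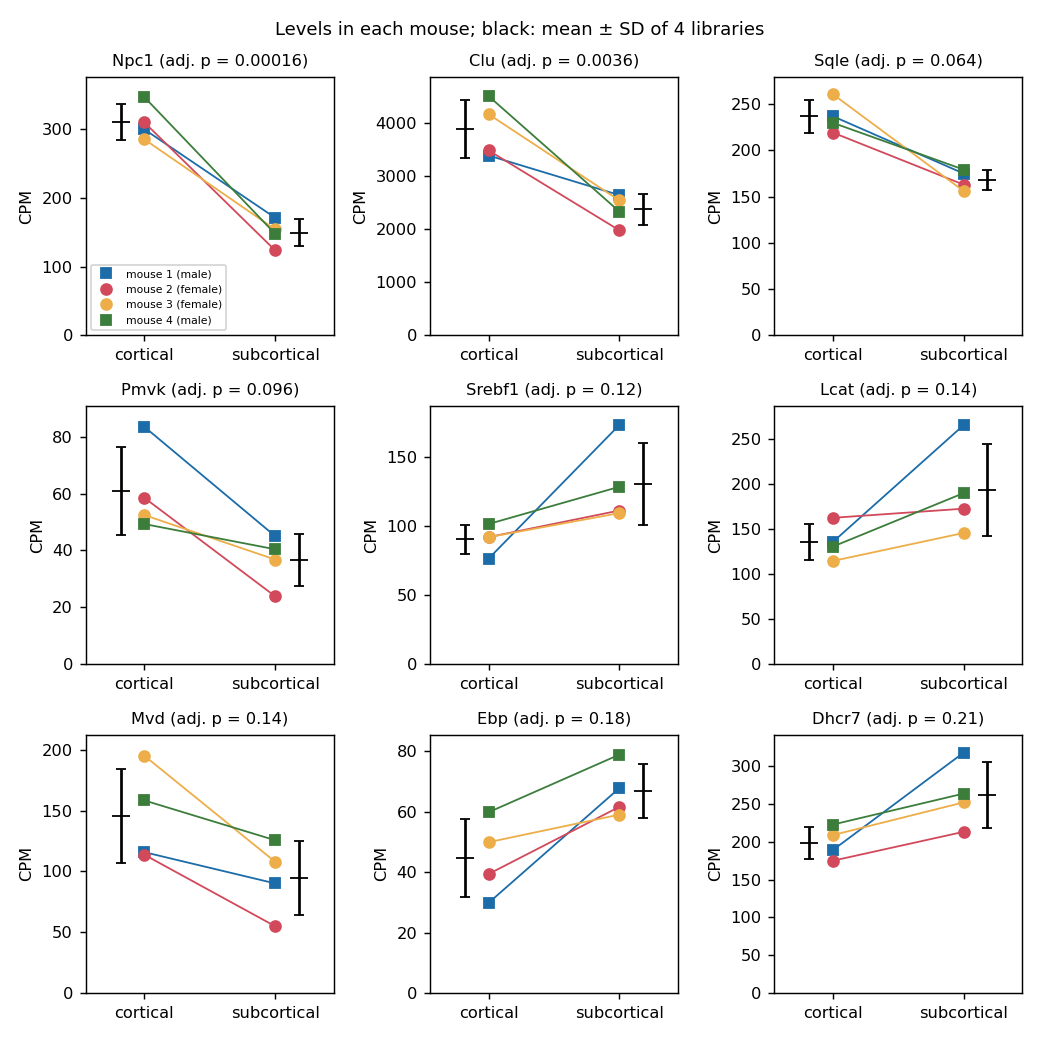
CPM (vertical axes, from 0) in the cortical library (left) and the subcortical library (right) of each mouse, joined by lines, for the 9 genes with an unadjusted p under 0.05, with squares for males, circles for females and black bars for mean ± SD of 4 libraries. Npc1, Clu, Sqle and Pmvk are higher in all 4 cortical than in all 4 subcortical libraries, and Srebf1 is lower in all 4.

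The ring closure and the trimming of lanosterol showed values on both sides of 0. Lss, which closes the ring, averaged 27.1 ± 4.67 CPM in cortical astrocytes, against 29.4 ± 9.19 CPM in subcortical astrocytes (SD, n = 4 each), with a log2 fold change of -0.12 (95% interval -0.72 to 0.48). Cyp51, the lanosterol demethylase, averaged 219.6 ± 46.7 CPM in cortical astrocytes, against 257 ± 35.03 CPM in subcortical astrocytes (SD, n = 4 each), with a log2 fold change of -0.23 (95% interval -0.60 to 0.15). Tm7sf2, a sterol reductase of the next step, averaged 16.8 ± 2.83 CPM in cortical astrocytes, against 15.8 ± 9.16 CPM in subcortical astrocytes (SD, n = 4 each), and its subcortical values differed 3.67-fold between mice. That spread leaves a wide interval around its log2 fold change of 0.09 (95% interval -0.75 to 0.93). Msmo1, the C4 methyl sterol oxidase, was the most abundant synthesis gene by CPM and had 1952, 2077, 1898 and 2129 CPM in cortical astrocytes, against 1878, 1819, 1739.7 and 2309 CPM in subcortical astrocytes. Its cortical values differed by only 1.12-fold and its log2 fold change was 0.06 (95% interval -0.24 to 0.36), so that a difference of more than about 1.3-fold lies outside the interval. Nsdhl, the decarboxylase that works with it, averaged 67.7 ± 14.3 CPM in cortical astrocytes, against 74.3 ± 12.6 CPM in subcortical astrocytes (SD, n = 4 each), with a log2 fold change of -0.14 (95% interval -0.58 to 0.31). Hsd17b7, the ketoreductase of the same complex, averaged 71.7 ± 14.98 CPM in cortical astrocytes, against 83.4 ± 5.82 CPM in subcortical astrocytes (SD, n = 4 each), with a log2 fold change of -0.22 (95% interval -0.64 to 0.20). None of these genes separated the regions, and the groups overlapped for each.

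The last steps leaned the other way. Ebp, the isomerase that moves the ring double bond, had 29.8, 39.4, 49.9 and 59.8 CPM in cortical astrocytes, against 67.8, 61.6, 59.03 and 78.9 CPM in subcortical astrocytes, with less in the cortical library of each mouse and overlap at a single pair of values. Its log2 fold change was -0.58 (95% interval -1.07 to -0.09, edgeR adjusted p = 0.185). Dhcr7, the final reductase of one branch, had 189, 175, 209 and 223 CPM in cortical astrocytes, against 318, 213, 252 and 264 CPM in subcortical astrocytes, likewise with less in each cortical library than in its pair and a log2 fold change of -0.40 (95% interval -0.75 to -0.05, edgeR adjusted p = 0.209). Subcortical mouse 1 was the highest library for Dhcr7, and without it the log2 fold change was -0.29. Sc5d, the desaturase between these steps, averaged 158 ± 28.4 CPM in cortical astrocytes, against 162 ± 53.96 CPM in subcortical astrocytes (SD, n = 4 each), with a log2 fold change of -0.03 (95% interval -0.47 to 0.42). Ebp was highest in subcortical mouse 4, and without subcortical mouse 1 its log2 fold change was -0.57. Subcortical mouse 1 also had the highest oligodendrocyte marker sum, 5809 CPM, and the part of those cells in the values of Ebp and Dhcr7 was not tested.

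The order of the mice was compared between the regions for the synthesis genes, and a difference between mice was not tested. The same mouse was lowest in both regions for 8 of the 16 tested genes, 50.0%, and highest in both for 7 of 16, 43.8%, against 26.7% and 26.6% of all tested genes. Mouse 2 was lowest for 8 of 16 genes among cortical and for 10 of 16 among subcortical libraries. Its summed synthesis level was the lowest of each region, 3652 CPM in the cortical and 3261 CPM in the subcortical library, where the other 3 mice had 3848 to 4126 CPM in cortical libraries and 3844 to 4128 CPM in subcortical libraries. The subcortical library of mouse 2 was also the shallowest, at 2484717 counts, and had the highest share of reads without a feature, 40.7%. The 16 genes share libraries and many share regulators, so these counts describe 4 animals.

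**Figure D3:**
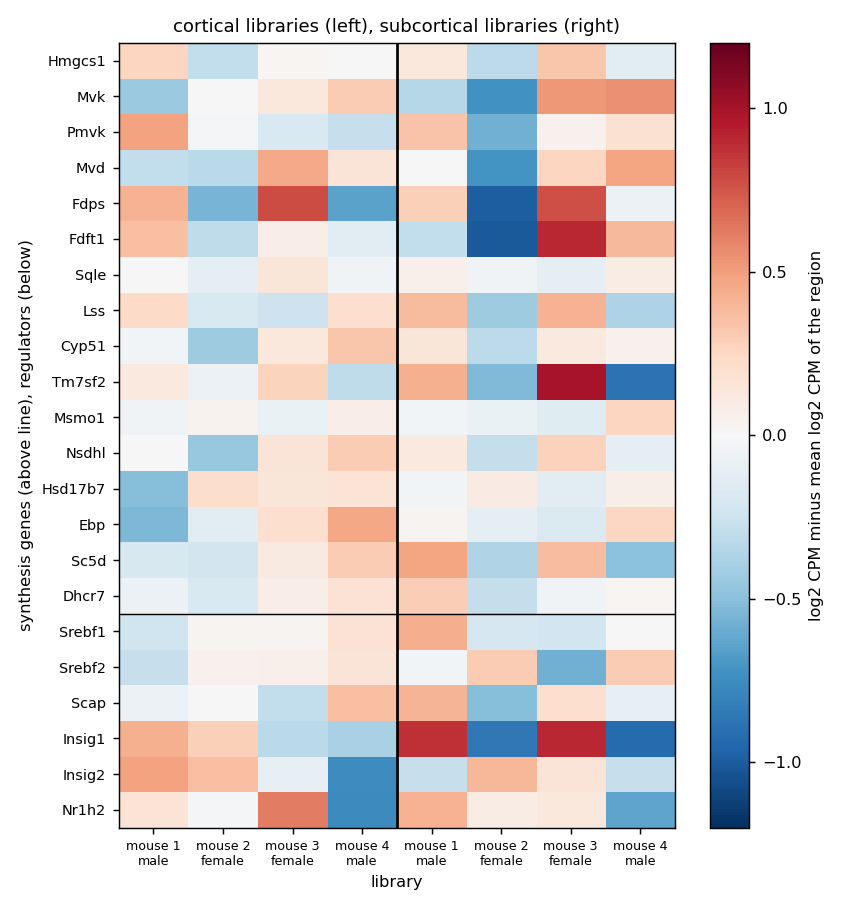
Deviation of each library from the mean of its region (colour, log2 CPM) for the 16 tested synthesis genes (above the line) and the 6 regulators (below it), with the cortical libraries of mice 1 to 4 on the left and the subcortical ones on the right. Fdps, Fdft1, Mvd and Hmgcs1 are blue for mouse 2 on both sides, while Sqle and Msmo1 are pale throughout.

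Among the regulators 0 of 6 were called in edgeR's quasi-likelihood test, with 1 of them, Srebf1, at an unadjusted p under 0.05, and neither DESeq2 nor limma-voom called any. Srebf1, whose SREBP1 products act mainly on fatty acid genes, had 76.4, 91.97, 91.9 and 101 CPM in cortical astrocytes, against 173, 111, 109 and 128 CPM in subcortical astrocytes. All 4 cortical values lay below all 4 subcortical values, by a log2 fold change of -0.53 (95% interval -0.93 to -0.13, edgeR adjusted p = 0.119). The highest value was that of subcortical mouse 1, and without that library the log2 fold change was -0.36. Srebf2, whose product SREBP2 acts mainly on the sterol genes, had 485, 609, 613 and 655 CPM in cortical astrocytes, against 437, 552, 301 and 554 CPM in subcortical astrocytes, higher in the cortical library of all 4 mice but overlapping between groups. Its log2 fold change was 0.36 (95% interval -0.03 to 0.74), with an edgeR adjusted p of 0.342. Fitted values of the pair thus lay on opposite sides of 0, though neither was called.

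Scap, the escort of both factors, averaged 75.8 ± 14.8 CPM in cortical astrocytes, against 58.1 ± 15.2 CPM in subcortical astrocytes (SD, n = 4 each), with a log2 fold change of 0.38 (95% interval -0.09 to 0.86). Insig1, itself an SREBP target and the brake on SCAP, had 32.04, 29.02, 19.03 and 18.2 CPM in cortical astrocytes, against 62.02, 18.6, 62.9 and 17.7 CPM in subcortical astrocytes. Subcortical mice 1 and 3 were more than 3-fold above subcortical mice 2 and 4, and the log2 fold change was -0.71 (95% interval -1.50 to 0.07). Insig2 averaged 10.2 ± 3.53 CPM in cortical astrocytes, against 13.3 ± 3.14 CPM in subcortical astrocytes (SD, n = 4 each), and Nr1h2, the oxysterol receptor LXRβ that switches on the export genes, averaged 14.6 ± 5.35 CPM in cortical astrocytes, against 10.2 ± 2.85 CPM in subcortical astrocytes (SD, n = 4 each). Both were scarce, and their 95% intervals ran from -1.29 to 0.53 for Insig2 and from -0.37 to 1.42 for Nr1h2 on the log2 scale.

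Lipoprotein and export genes held 1 of the 2 calls. Apoe, the main apolipoprotein of astrocyte particles, was the most abundant gene of the list and had 12129, 15889.8, 14949 and 17721 CPM in cortical astrocytes, against 17358, 14923, 12693 and 18840.02 CPM in subcortical astrocytes. The groups overlapped, mice 1 and 4 were lower and mice 2 and 3 higher in the cortical library, and the log2 fold change was -0.07 (95% interval -0.39 to 0.24). Clu had 3384, 3479, 4163 and 4503 CPM in cortical astrocytes, against 2638, 1975, 2538 and 2329 CPM in subcortical astrocytes. Every cortical library stood above every subcortical library, by a log2 fold change of 0.71 (95% interval 0.40 to 1.02, SE 0.15, edgeR adjusted p = 0.00363). The call held in every alternative that was run, and the largest adjusted p among them was 0.0315, without mouse 4. Without subcortical mouse 1, the library richest in oligodendrocyte markers, the log2 fold change of Clu was 0.77. The other subcortical libraries still had 2299 to 3172 CPM of those markers, against 877 to 1410 CPM in cortical libraries. The part of those cells in the value of Clu was not tested.

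Lcat, which esterifies cholesterol on lipoprotein particles, had 136, 163, 115 and 131 CPM in cortical astrocytes, against 266, 173, 146 and 190.2 CPM in subcortical astrocytes. All 4 mice had less of it in their cortical library, with overlapping groups and a log2 fold change of -0.51 (95% interval -0.91 to -0.11, edgeR adjusted p = 0.141). Subcortical mouse 1 was again the highest library, and without it the log2 fold change was -0.32. Abca1, the exporter that lipidates apolipoprotein E, had 163, 132, 142 and 136 CPM in cortical astrocytes, against 221, 132, 153 and 204 CPM in subcortical astrocytes. Its cortical values lay below the subcortical ones within each mouse, by almost nothing in mouse 2, and the log2 fold change was -0.31 (95% interval -0.70 to 0.07). For Srebf1, Lcat and Abca1 alike the part of oligodendrocyte RNA in subcortical mouse 1 was not tested.

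The other export genes were scarce. Abcg1, the second exporter, had 26 counts over the cortical and 34 over the subcortical libraries, of which 28 came from subcortical mouse 1 alone. Its cortical to subcortical ratio of counts, corrected for library size, was 0.513, with an exact 95% interval of 0.296 to 0.881 that covers counting error only. Without subcortical mouse 1, an alternative chosen after seeing the data, the ratio turned to 2.27 (exact 95% interval 0.913 to 6.74). Lpl, lipoprotein lipase, had 34 counts over the cortical and 2 over the subcortical libraries, and 23 of the 34 came from cortical mouse 3. The ratio was 11.4 with an exact 95% interval of 2.92 to 98.0, and 5 (1.09 to 46.5) without that library. In the edgeR fit without a low-count filter neither gene was called (adjusted p = 0.701 for Abcg1 and 0.392 for Lpl).

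Of the genes that move sterol inside the cell, Npc1 differed most. It had 299.98, 310.1, 286 and 347 CPM in cortical astrocytes, against 171, 124, 154 and 148 CPM in subcortical astrocytes. The lowest cortical value was well above the highest subcortical value, and the log2 fold change was 1.06 (95% interval 0.72 to 1.40, SE 0.16, edgeR adjusted p = 0.000161). The call held in every alternative that was run, with log2 fold changes of 0.98 to 1.25 and a largest adjusted p of 0.00356, without mouse 2. Without subcortical mouse 1 the log2 fold change was 1.13. The astrocyte marker sum was likewise higher in every cortical library, but its 12 markers did not move together. Slc1a2, Slc1a3, Glul and Gfap were called higher in cortical libraries, Aqp4 and Slc4a4 lower, and 6 were not called. The part of astrocyte content in the values of Npc1 and Clu was not tested, nor was that of oligodendrocyte RNA in the value of Npc1. Exons of Npc1 overlap those of Rmc1 on the other strand, and Rmc1 itself had only 4.47 ± 3.33 CPM in cortical libraries and 2.81 ± 1.51 CPM in subcortical libraries (SD, n = 4 each).

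Npc2, the soluble partner that hands cholesterol to NPC1 inside the lysosome, had 210.3, 329, 290.4 and 303 CPM in cortical astrocytes, against 289, 308, 268 and 281 CPM in subcortical astrocytes. Unlike its partner it overlapped between regions, with a log2 fold change of -0.02 (95% interval -0.36 to 0.33), whose interval lies below that of Npc1. That difference between the genes was not tested as such. Soat1, the enzyme that esterifies cholesterol for storage, had 272, 264, 270.2 and 212 CPM in cortical astrocytes, against 335, 263, 283 and 289 CPM in subcortical astrocytes, with overlapping groups and a log2 fold change of -0.20 (95% interval -0.53 to 0.13).

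Summed over the 9 transport genes the level was 20186 ± 2774 CPM in cortical libraries and 19426 ± 2836 CPM in subcortical libraries (SD, n = 4 each), and Apoe and Clu made up most of it. Without them the sum was 1131 ± 49.7 CPM in cortical libraries and 1103 ± 137 CPM in subcortical libraries (SD, n = 4 each). Both sums overlapped between regions, as did that of synthesis.

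**Figure D4:**
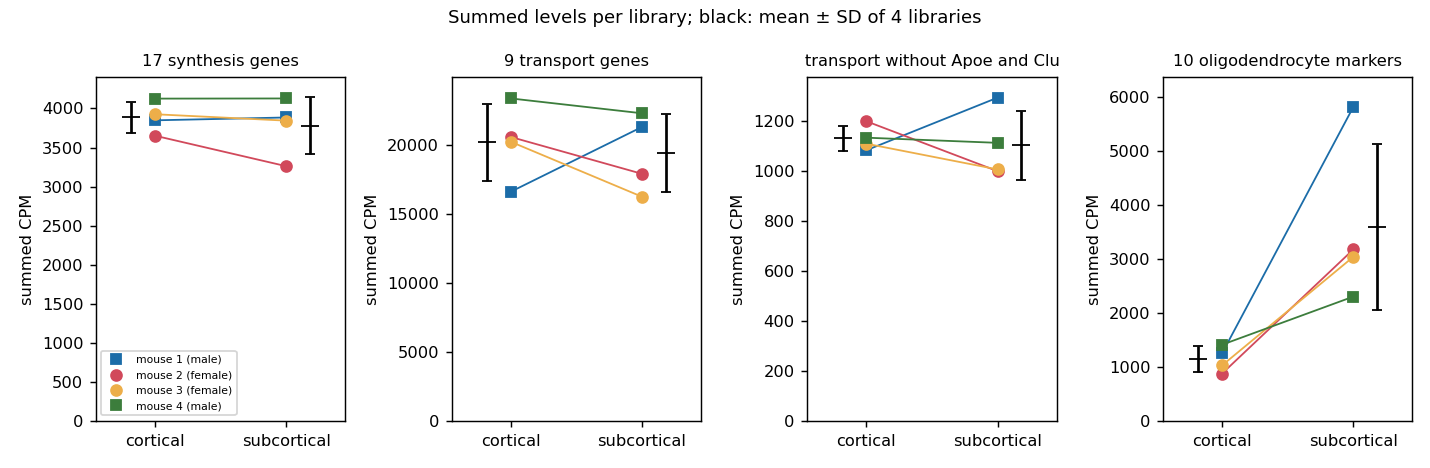
Summed CPM (vertical axes, from 0) in the cortical library (left) and the subcortical library (right) of each mouse for the 17 synthesis genes, the 9 transport genes, transport without Apoe and Clu, and 10 oligodendrocyte markers, with black bars for mean ± SD of 4 libraries. The 3 sterol sums overlap between regions, while the oligodendrocyte sum is 877 to 1410 CPM in cortical libraries and 2299 to 5809 CPM in subcortical libraries.

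Sex made no detectable difference to these genes in this design. Counts of both libraries were summed per mouse, and of 30 genes that could be tested between 2 female and 2 male mice 0 were called by edgeR's quasi-likelihood test, with 0 at an unadjusted p under 0.05, against 0.0373% of 13402 genes called. The largest fitted difference among genes with over 100 CPM was that of Abca1, which averaged 139 CPM in female and 181 CPM in male libraries, with a log2 difference of -0.34 (edgeR adjusted p = 0.999). The regional difference did not differ detectably between the sexes either. In edgeR's quasi-likelihood test of region by sex 0 of 29 genes were called, with 0 at an unadjusted p under 0.05, and 0% of the 11781 tested genes, of which 403 had an unadjusted p under 0.05. With 2 mice of each sex such differences could be missed.

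Other genes of the pathway were read from lists beside these 32. Of 8 further synthesis genes 0 were called by edgeR's quasi-likelihood test (1 at an unadjusted p under 0.05, 0 called by limma-voom and 1 by DESeq2). Of 10 tested genes of intracellular sterol handling 0 were called (2 at an unadjusted p under 0.05, with 1 called by each of limma-voom, DESeq2 and the paired edgeR fit). Of 10 lipoprotein receptor genes 1 rose, 2 fell and 7 were not called in cortical astrocytes, and of 7 tested further carrier and export genes 3 fell and 4 were not called. Over all tested genes 3.42% were called higher and 3.39% lower, and no claim is made for these short lists beyond their counts. The genes that fell did so where the oligodendrocyte markers were also lower, at 877 to 1410 CPM in cortical libraries and 2299 to 5809 CPM in subcortical libraries (8 of 10 markers called lower, none at 0), and the part of those cells in the falls was not tested.

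Sorl1, a sorting receptor that also binds apolipoprotein E, had 205, 250.3, 217 and 199 CPM in cortical astrocytes, against 427, 299.9, 429 and 432 CPM in subcortical astrocytes, with no overlap and a log2 fold change of -0.86 (edgeR adjusted p = 0.00173, called in every alternative that was run). Lrp1, the large receptor that takes up apolipoprotein E particles, had 533, 676, 676 and 720.2 CPM in cortical astrocytes, against 1189, 1004, 867 and 1123 CPM in subcortical astrocytes. It fell by 0.68 on the log2 scale in cortical astrocytes (edgeR adjusted p = 0.00777), and was not called without mouse 1 (0.121) or with scaling by library totals (0.0612). Sort1, another sorting receptor, rose by a log2 fold change of 0.73 (edgeR adjusted p = 0.0227), a call lost without cortical mouse 2 or 3 or subcortical mouse 1 or 4 (adjusted p 0.0707 to 0.102).

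Apod, a lipid-carrying apolipoprotein, averaged 35.00 ± 7.13 CPM in cortical astrocytes, against 84.05 ± 44.1 CPM in subcortical astrocytes (SD, n = 4 each), a fall of 1.26 on the log2 scale (edgeR adjusted p = 0.0072, and 0.0714 without subcortical mouse 1, where it reached 148 CPM and the oligodendrocyte markers 5809 CPM). Pltp, the phospholipid transfer protein, averaged 23.98 ± 1.43 CPM in cortical astrocytes, against 48.00 ± 12.1 CPM in subcortical astrocytes (SD, n = 4 each, edgeR adjusted p = 0.0191, and 0.0509 to 0.078 without cortical mouse 2 or 3 or subcortical mouse 1 or 4). Apoc1 averaged 8.03 ± 3.53 CPM in cortical astrocytes, against 22.4 ± 9.82 CPM in subcortical astrocytes (SD, n = 4 each, edgeR adjusted p = 0.0359). It was not called in the paired fit (adjusted p = 0.0547) or without cortical mouse 2 or 3 or subcortical mouse 2 or 3 (0.0573 to 0.212).

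Of 11 tested further regulators 1 fell. It was Mylip, the LXR-induced ligase that marks lipoprotein receptors for breakdown, with 1.42 ± 1.88 CPM in cortical astrocytes, against 13.2 ± 5.48 CPM in subcortical astrocytes (SD, n = 4 each) and 23 counts in all over the cortical and 147 over the subcortical ones (edgeR adjusted p = 0.0146, and 0.0603 and 0.0608 without subcortical mouse 1 or 4). Of 3 tested oxysterol enzymes 1 rose. In the paired fit a second one, Cyp7b1, the oxysterol 7-alpha-hydroxylase, was called as well and in the other direction (log2 fold change -0.68, edgeR adjusted p = 0.0472, against 0.0739 without the block); it is named here after its values were seen. The one that rose was Cyp46a1, the cholesterol 24-hydroxylase known from neurons, which averaged 25.9 ± 4.74 CPM in cortical astrocytes, against 9.85 ± 6.72 CPM in subcortical astrocytes (SD, n = 4 each, edgeR adjusted p = 0.0438, and 0.0607 to 0.14 without any single library other than subcortical mouse 4). Neuronal marker sums are given above and hide differences between the markers. Of the 10 tested, 7 had fitted values above 0 and 3 below. Slc17a7 was called higher in cortical libraries (log2 fold change 3.77) and Nefl lower (-1.71). The part of neuronal RNA in the value of Cyp46a1 was not tested.

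Fatty acid genes, many of them targets of SREBP1, were called in 3 of 12 cases, all lower in cortical astrocytes, against 3.39% of all tested genes. In either direction, DESeq2 called 5 of the 12, limma-voom 4 and the paired edgeR fit 4. Over all genes they tested, DESeq2 called 7.24%, limma-voom 776 genes and the paired fit 7.52%, also in either direction. Scd2, the main brain stearoyl-CoA desaturase, had 932, 825, 758 and 741 CPM in cortical astrocytes, against 1324, 1159, 1806 and 1333 CPM in subcortical astrocytes, with no overlap and a log2 fold change of -0.79 (edgeR adjusted p = 0.00284, and 0.0521 without mouse 3). Scd1, its relative, averaged 107 ± 29.98 CPM in cortical astrocytes, against 190.4 ± 61.6 CPM in subcortical astrocytes (SD, n = 4 each, edgeR adjusted p = 0.0301, and 0.0555 to 0.147 without cortical mouse 2 or 4 or any of subcortical mice 1, 3 and 4). Fads1, a fatty acid desaturase, averaged 232 ± 31.1 CPM in cortical astrocytes, against 354 ± 66.1 CPM in subcortical astrocytes (SD, n = 4 each, edgeR adjusted p = 0.0343, and 0.0878 to 0.129 without cortical mouse 1 or 2 or subcortical mouse 3 or 4). Beside these 3 falls stand the oligodendrocyte marker sums, lower in every cortical library, and their part in them was not tested. Scaling by library totals also ended the calls of Pltp, Apoc1, Scd1 and Fads1 (adjusted p 0.078 to 0.222), limma-voom those of Mylip (0.0582) and Cyp46a1 (0.0551), and leaving out 1 whole mouse those of Sort1, Apod, Pltp, Apoc1, Mylip, Cyp46a1, Scd1 and Fads1 (adjusted p up to 0.391).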

How the data were processed

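Per the labels, RNA was taken from lysates of sorted astrocytes with an RNeasy Plus Micro kit and turned into 3′ libraries with the forward QuantSeq kit of Lexogen. Per the submitters' processing notes, STAR 2.6.0, HTSeq 0.9.0, FastQC 0.11.5, DESeq2 1.35.0 and GRCm39 were used, with no settings named. Whether counting used strand or molecular identifiers was not stated. For each sample the authors deposited a table of raw whole-number counts, the input of all tests here. HTSeq's summary rows stayed out (no feature 30.2 to 40.7% and ambiguous 0.384 to 0.548% of a library). A normalized table of the series, with 8 columns whose names match no sample's labels, was not used. Symbols were matched for 52083 of 55417 rows.

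Region was tested in R 4.3.3 with edgeR 4.0.16, keeping genes by filterByExpr (at least 10 counts in 4 libraries and 15 in total), with TMM factors and quasi-likelihood tests, fitted over all genes with Benjamini-Hochberg adjustment at 0.05. CPM were computed from the deposited counts on effective library sizes. A floor of 3 counts equals 0.696 to 0.777 CPM in cortical and 0.831 to 1.43 CPM in subcortical libraries, and intervals of counts cover counting error only. Sex was tested on counts summed per mouse, and region by sex as a contrast of the 4 means of sex and region. The scripts were tested on simulated data of 4 libraries against 4, with changes set in genes of at least 10 CPM. There edgeR's quasi-likelihood test called 2 of 57 genes changed 1.5-fold, 22 of 67 changed 2-fold and 69 of 76 changed 4-fold. Most changes of 1.5-fold were thus missed in the simulation. It held fewer changed genes than the 802 called in the real data, so its shares do not carry over to them. A gene that was not called can still differ between regions.

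The genes and lists were chosen with earlier results of these data known. All 32 genes are named, and of other lists only called genes, up to 3 per list and direction by p. Alternatives were RLE size factors, library totals, TMM without mitochondrial and other-cell genes, DESeq2 1.42.0, limma-voom (limma 3.58.1), no filter or 5 CPM, the mouse as a block, sex as a covariate, a threshold of 0.01, and leaving out each library or mouse. Same-numbered libraries came from the same mouse, so the numbers pair them; over genes, their deviations from the mean of their region had correlations of 0.0248 to 0.0657, and those of different mice at -0.0936 to 0.0523. Libraries of 1 region are different animals. Promoters were RefSeq windows of GRCm38.p6, and exon overlaps came from GENCODE M21 of GRCm38, used for names only.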

Additional observations from a re-analysis of the deposited data

Results flagged for a closer look

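A gap between 1 library and the other 3 of its region stood out in 4 of the 86 groups of 4 values examined, where chance gives about 5%. Hsd17b7 was 49.3 CPM in cortical mouse 1, against 77.5 to 81.1 CPM in the other cortical libraries. Soat1 was 212 CPM in cortical mouse 4, where the other cortical libraries had 264 to 272 CPM. Lpl was 0.554 CPM in subcortical mouse 4, which holds both of its subcortical counts, and 0 in the other 3. Sorl1 was 299.9 CPM in subcortical mouse 2, the shallowest library, against 427 to 432 CPM in the other subcortical libraries.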

How the results depend on the processing

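Of 840 comparisons of a named gene with an alternative, 734 kept direction and side of the threshold, 62 lost and 7 gained the call, and 37 changed sign. Npc1 and Clu kept their calls throughout, and 2 transport genes were called under every alternative. Scaling by library totals moved the median log2 change of all genes to 0.19, against -0.01. With that scaling 926 of all 11781 tested genes were called, against 802 in the main test. Of the 29 genes it called 6, 3 of them in synthesis (Pmvk, Mvd and Sqle, beside Srebf2). Under it the fitted values of Lss (0.071), Nsdhl (0.052), Sc5d (0.16), Apoe (0.13), Npc2 (0.19) and Soat1 (0.007) changed sign. DESeq2, no filter and the replicate block each called 1 synthesis gene, which was Sqle, Mvd and Mvd in that order. Over all genes they called 1061, 997 and 886. The paired block changed no other call of a named gene than those of Mvd, Apoc1 and Cyp7b1, and Sc5d was 0.013 with it and 0.027 in limma-voom. Leaving out libraries or mice gave -0.078 to 0.14 for Hmgcs1, -0.035 to 0.34 for Mvk, -0.14 to 0.46 for Fdps, -0.30 to 0.11 for Lss, -0.15 to 0.51 for Tm7sf2, -0.28 to 0.20 for Sc5d, -0.17 to 0.065 for Apoe and -0.094 to 0.11 for Npc2. Over all genes 477 were called at an adjusted p of 0.01, and 474 (without mouse 1) to 775 with libraries or mice left out. Sex called 5 genes on summed counts and 3 within subcortical libraries. The cause was not tested for any of these. In an alternative chosen after seeing the data, the count ratio of Abcg1 was 2.27 without subcortical mouse 1, against 0.513 with it, and that of Idi1 was 0.91 without cortical mouse 3, against 2.68 with it. At these counts no direction is given for Idi1 or Abcg1.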
